A study of Rattus norvegicus with 22 samples.

Results

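The 9 lymphocyte genes were followed through the rat hippocampus after traumatic brain injury (TBI). They were chosen by name, as 9 of the 17172 genes in the table of read counts, and were Ptprc, Ptprcap, Cd3e, Cd3g, Cd4, Cd8a, Cd2, Lck and Coro1a. The RNA came from bulk ipsilateral hippocampus of 14 adult male Sprague-Dawley rats. TBI rats received lateral fluid percussion (LFP), a pressure pulse delivered to the brain through an opening in the skull. Sham rats had the same craniectomy and anesthesia without the pulse, so every group shared the surgery. There were 2 sham and 4 TBI rats at day 1 (acute), and 4 sham and 4 TBI rats at day 14 (subchronic), with different rats on each day. The description of the animals in the study gives 2 sham rats at day 14, whereas its abstract, its results and the labels give 4. All 4 were used.

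A T cell recognizes antigen through a receptor that signals through the CD3 chains, with CD4 or CD8 as the coreceptor that brings the kinase Lck to the complex. CD45, encoded by Ptprc, is a phosphatase that sets the activity of Lck and its relatives and is carried by all leukocytes. Several of the genes are not confined to T cells: microglia and macrophages carry CD45, rat macrophages can carry CD4, natural killer cells of the rat carry the CD8 alpha chain and CD2, and neurons also transcribe Coro1a.

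Total counts ranged from 15065540 to 23743703 per sample. Markers of hippocampal neurons were present in every library, with at least 155 counts of Prox1 (dentate granule cells), 1546 of Wfs1 (CA1), 712 of Grik4 (CA3) and 15790 of Camk2a (excitatory neurons). Their levels were uneven: the 2 sham day 1 rats had 29.0 and 111 CPM (counts scaled to library size) of Prox1 and 339 and 71.3 CPM of Wfs1. Grik4 (log2 fold change −1.19, edgeR adjusted p 0.000754) and Prox1 (−1.66, edgeR adjusted p 0.0334) were lower in TBI than in sham at day 1. Wfs1 (1.38, edgeR adjusted p 0.00857) was higher in TBI day 14 than in TBI day 1. The part of this unevenness in the results that follow was not tested. There were 3 libraries that stood apart in Ttr, the main secreted product of the choroid plexus, which lies against the hippocampus: sham day 1 replicate 1 held 140652 counts, and TBI day 14 replicates 2 and 3 held 24020 and 141619. The other 11 libraries held 70 to 197. Calls and counts that changed without these 3 libraries are given gene by gene or list by list, in part only in the section on processing. Without them sham day 1 is a single rat, assumed in the fit to vary like the other groups.

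RefSeq promoter windows of the build GRCr8 were available for 7 of the 9 genes. Of these, 4 are shown, each the 250 bases before the annotated start, read 5′ to 3′ on the strand of the gene. Ptprc, Cd8a and Cd2 are the genes with the larger rises at day 1, and Cd3e is shown for contrast because its counts followed another pattern. Capitals mark AGGAAG, a core of sites bound by ETS factors, and TGTGGT, a core of sites bound by RUNX factors, on either strand.
Ptprc (chr13:52259747-52259996, minus strand): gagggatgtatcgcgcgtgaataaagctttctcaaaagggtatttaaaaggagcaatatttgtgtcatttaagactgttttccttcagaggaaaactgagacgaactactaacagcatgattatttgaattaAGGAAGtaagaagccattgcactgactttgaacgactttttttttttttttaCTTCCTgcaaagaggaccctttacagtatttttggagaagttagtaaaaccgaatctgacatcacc
Cd3e (chr8:54211771-54212020, minus strand): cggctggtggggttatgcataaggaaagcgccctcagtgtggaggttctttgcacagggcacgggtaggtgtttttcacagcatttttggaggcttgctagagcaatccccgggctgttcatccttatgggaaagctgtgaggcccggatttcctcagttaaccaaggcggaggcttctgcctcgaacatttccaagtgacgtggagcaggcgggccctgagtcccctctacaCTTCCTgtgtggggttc
Cd8a (chr4:104923866-104924115, plus strand): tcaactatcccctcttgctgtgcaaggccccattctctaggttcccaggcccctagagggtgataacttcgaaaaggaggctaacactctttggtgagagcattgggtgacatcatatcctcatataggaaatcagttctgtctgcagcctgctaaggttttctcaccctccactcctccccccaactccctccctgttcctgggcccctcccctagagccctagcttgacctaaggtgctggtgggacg
Cd2 (chr2:191412660-191412909, minus strand): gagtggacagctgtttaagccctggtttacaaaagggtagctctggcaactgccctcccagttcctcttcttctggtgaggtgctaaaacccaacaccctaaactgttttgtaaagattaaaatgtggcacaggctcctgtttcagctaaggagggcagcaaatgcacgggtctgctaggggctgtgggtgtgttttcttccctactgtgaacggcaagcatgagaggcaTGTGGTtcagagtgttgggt
AGGAAG was found 2 times in the Ptprc window and 1 time in that of Cd3e, and TGTGGT was found 1 time in that of Cd2. Neither was found in that of Cd8a, and no match overlapped another. Of 33360 such windows, 29.5% held AGGAAG and 14.5% held TGTGGT, so these matches are common letters and mark no site by themselves.

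Of the 8 genes that passed the filter on low counts, 4 rose at day 1 against the sham of the same day (Ptprc, Ptprcap, Cd8a and Cd2) and 0 fell. Among all 12875 genes tested, 11.2% rose and 7.93% fell at day 1. Cd8a and Cd2 had more than 10 counts only in rats of TBI day 1, so they passed the filter through the group in which they were high. The 4 of 8 is therefore a description beside that share. At day 14, 3 rose (Ptprc, Ptprcap and Cd4) and 0 fell, where 4.07% of all tested genes rose and 0.365% fell. The calls of Ptprcap at day 1 and at day 14 were each lost in some settings, given below. Ptprc and Ptprcap thus passed at both days, Cd8a and Cd2 at day 1 alone and Cd4 at day 14 alone. Of these, the difference between the days passed its own test for Cd4. Lck, Coro1a and Cd3e did not pass the test at either day, and Cd3g was too low to be tested. In bulk tissue, a change in the number of cells of a type and a change in the RNA of each cell cannot be told apart.

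**Figure D1:**
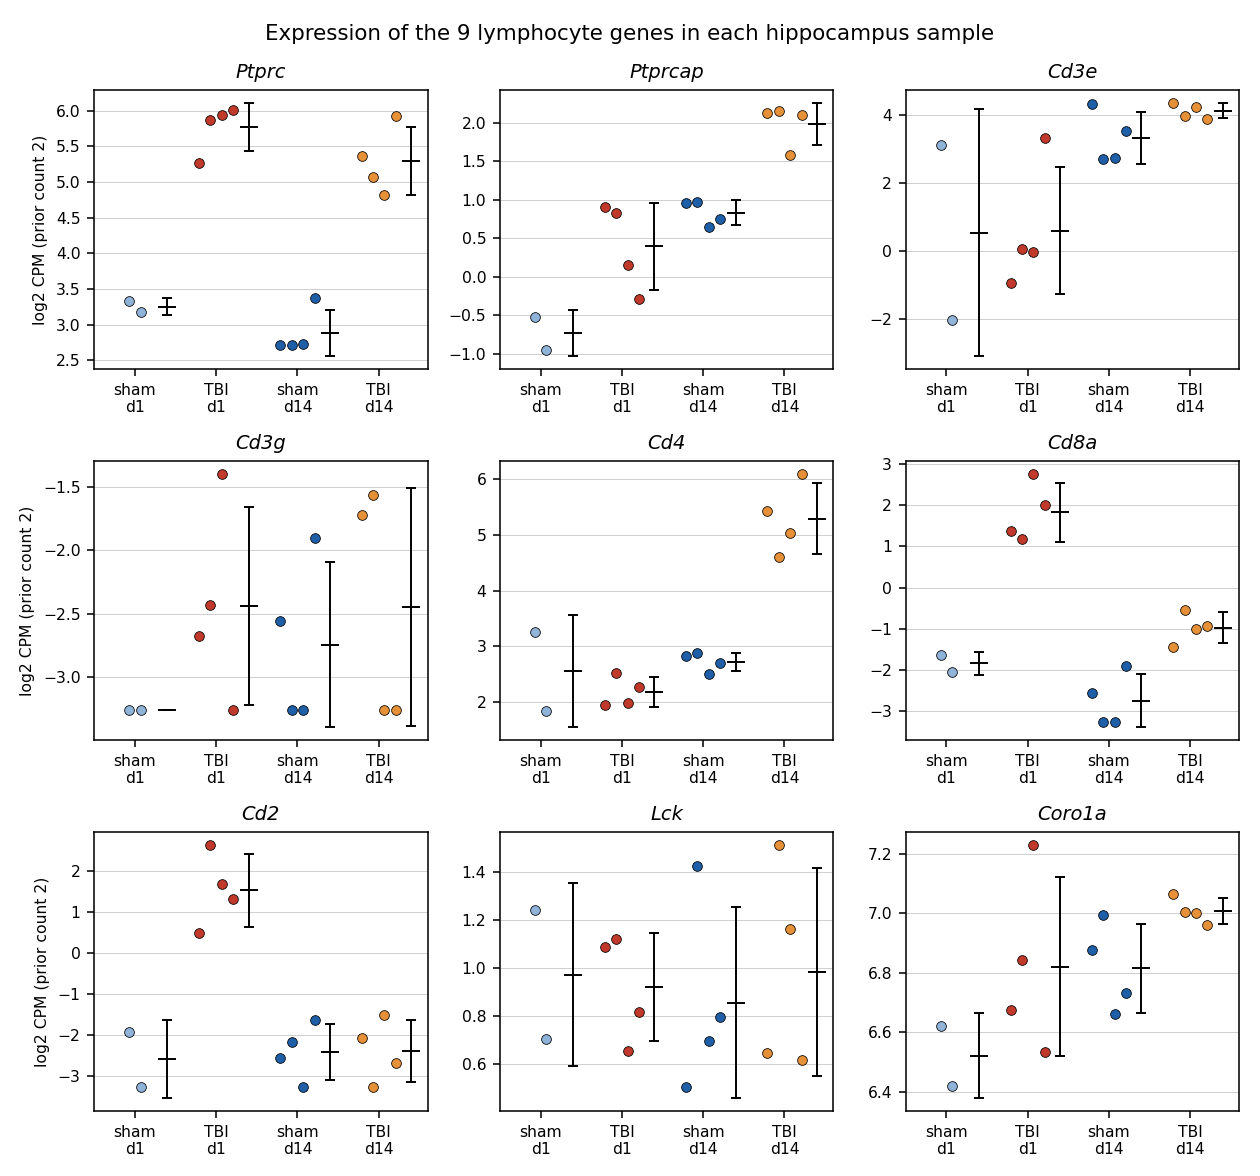
Expression of each of the 9 genes, 1 panel per gene, as log2 CPM (read counts scaled to library size) with a prior count of 2, with 1 point per rat and the mean and SD of the group to its right (n = 2 for sham day 1, otherwise 4). Each panel has its own vertical range. Ptprc is high in both TBI groups, Cd8a and Cd2 in TBI day 1, Cd4 in TBI day 14, and Cd3e is spread widely in both day 1 groups.

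**Figure D2:**
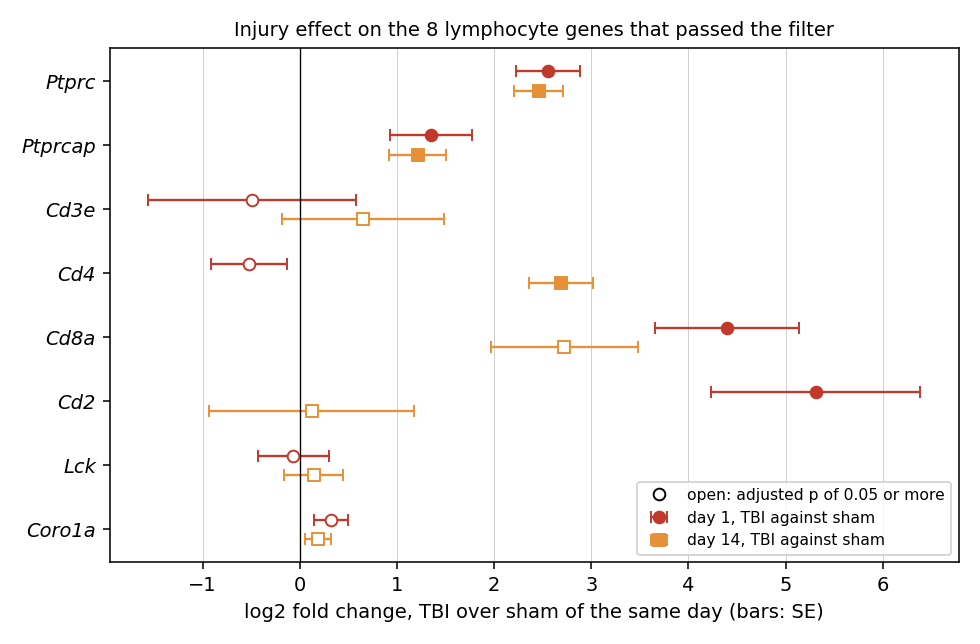
Log2 fold change of TBI over the sham of the same day for the 8 tested genes, with 1 SE on each side, at day 1 (circles) and day 14 (squares). Filled symbols passed an adjusted p of 0.05 in edgeR's quasi-likelihood test. Ptprc lies at 2.56 and 2.46, Cd4 at −0.52 and 2.69, and Cd2 at 5.31 and 0.12.

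Ptprc, the shared leukocyte phosphatase, rose at both days. Its raw counts were 185 and 193 in the sham day 1 replicates, and 739, 1431, 1337 and 1432 in TBI day 1. At day 14 they were 98, 107, 121 and 188 in sham, and 619, 570, 566 and 1146 in TBI. Every TBI count lay far above every sham count on both days. Scaled for library size, the level went from 9.43 ± 0.756 CPM (SD, n = 2) to 55.5 ± 11.7 (SD, n = 4) at day 1, and from 7.41 ± 1.88 (SD, n = 4) to 40.8 ± 14.2 (SD, n = 4) at day 14. The rise in log2 terms was 2.56 (SE 0.33) at day 1, with an adjusted p of 0.000112 in edgeR's quasi-likelihood test. For day 14 it was 2.46 (SE 0.25), with an edgeR adjusted p of 2.82e-05. The difference between the injury effects of the 2 days was 0.10 (SE 0.38), with an edgeR adjusted p of 0.915. Without the 3 libraries high in Ttr the log2 fold changes were 2.62 and 2.80, and both passed.

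Ptprcap encodes a small membrane protein that associates with CD45 in lymphocytes. Its counts were low, at 11 and 9 in sham day 1 and 34, 41, 22 and 16 in TBI day 1. They were 28, 31, 27 and 29 in sham day 14 and 64, 74, 58 and 79 in TBI day 14. Within each day the TBI and sham rats did not overlap, yet 2 of the 4 TBI day 1 rats lay below all sham rats of day 14. Injury raised Ptprcap by a log2 fold change of 1.35 (SE 0.42, edgeR adjusted p 0.0363) at day 1 and 1.21 (SE 0.29, edgeR adjusted p 0.0267) at day 14. Sham day 1 was itself lower than sham day 14, by a log2 fold change of −1.73 (SE 0.42, edgeR adjusted p 0.0132). Against sham day 14, TBI day 1 differed by −0.38 (SE 0.30, edgeR adjusted p 0.317), so the rise at day 1 is seen against the 2 sham rats of that day. With all 6 sham rats as the baseline the day 1 value was 0.01. The day 1 call was also lost in limma-voom (log2 fold change 1.25, adjusted p 0.0954), with only the 2 groups of that day in the fit (1.38, edgeR adjusted p 0.260) and at a threshold of 0.01, which the day 14 value missed too. Both calls were lost without the 3 libraries high in Ttr, where the log2 fold changes were 1.61 (edgeR adjusted p 0.0839) and 1.34 (edgeR adjusted p 0.0695).

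Cd3g and its neighbor Cd3d, which encode CD3 gamma and CD3 delta, stayed near the limit of detection in every rat. Cd3g had 0 and 0 counts in sham day 1 and 1, 2, 6 and 0 in TBI day 1. Day 14 gave 1, 0, 0 and 3 in sham and 3, 4, 0 and 0 in TBI. Cd3d, taken from a list of T cell genes, ranged from 0 to 5 counts over the 14 samples. TBI and sham rats overlapped for Cd3g on both days, and a difference was not detectable at this depth. An exact two-sided permutation test over rats gave p = 0.4 at day 1 for Cd3g, where the smallest possible p was 0.133. At day 14 the exact permutation test gave p = 0.543, with a smallest possible p of 0.0286. Summed over the group, TBI day 1 held 9 counts, 6 of them in 1 rat, against 0 in sham day 1. With the sham sum set to a floor of 3 counts the ratio was 1.37. That ratio takes the 9 counts as exact, so it is no lower limit and shows no rise.

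Cd3e, the gene of CD3 epsilon, did not follow Cd3g and Cd3d, although the 3 lie side by side in GRCr8. It had 158 and 3 counts in the sham day 1 replicates, and 8, 23, 19 and 221 in TBI day 1. On day 14 the counts were 305, 107, 122 and 212 in sham, and 309, 269, 381 and 280 in TBI. Within day 1, 1 sham rat and 1 TBI rat were high and the other 4 were low, so the split crossed the injury groups. Its log2 fold change was −0.49 (SE 1.07, edgeR adjusted p 0.781) at day 1 and 0.65 (SE 0.83, edgeR adjusted p 0.865) at day 14. Neither day passed, and the day 1 value became 4.37 (SE 2.09, edgeR adjusted p 0.156) without the 3 libraries high in Ttr, since sham day 1 then held only the rat with 3 counts. The high sham rat had 140652 counts of Ttr, whereas the high TBI rat had 88.

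Between the injured groups, Cd3e was higher at day 14 than at day 1 in every rat, with a log2 fold change of 2.52 (SE 0.89, edgeR adjusted p 0.0359). That call was lost in 7 of the 14 fits that left out 1 rat (TBI day 1 replicates 1, 2 and 3 and each TBI day 14 rat), with values from 2.17 to 4.53. It held without the 3 libraries high in Ttr (2.57, edgeR adjusted p 0.0464). The tested genes whose centered log2 CPM over the 14 samples lay nearest to that of Cd3e were Wnt3a (root mean square difference 0.70), Tp73 (1.03) and Ccdc27 (1.05). Wnt3a, a secreted Wnt ligand, had 31 and 1 counts in sham day 1, 0, 5, 1 and 20 in TBI day 1, 27, 36, 46 and 50 in sham day 14, and 53, 51, 66 and 61 in TBI day 14. The rats high in Cd3e at day 1 were also the 2 high in Wnt3a, a gene picked for its nearness to Cd3e over these same samples. Mpzl2, an adhesion gene that lies beside Cd3e in GRCr8 and was looked at after its values were seen, had 149 and 5 counts in sham day 1 and 18, 99, 26 and 177 in TBI day 1. The same 2 rats were its highest at day 1, but at day 14 it had 3 to 17 counts in sham and 8 to 55 in TBI, where Cd3e had 107 to 381. How the counting treated strand is not given in the sources used here, so reads of overlapping genes on opposite strands cannot be told apart.

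**Figure D3:**
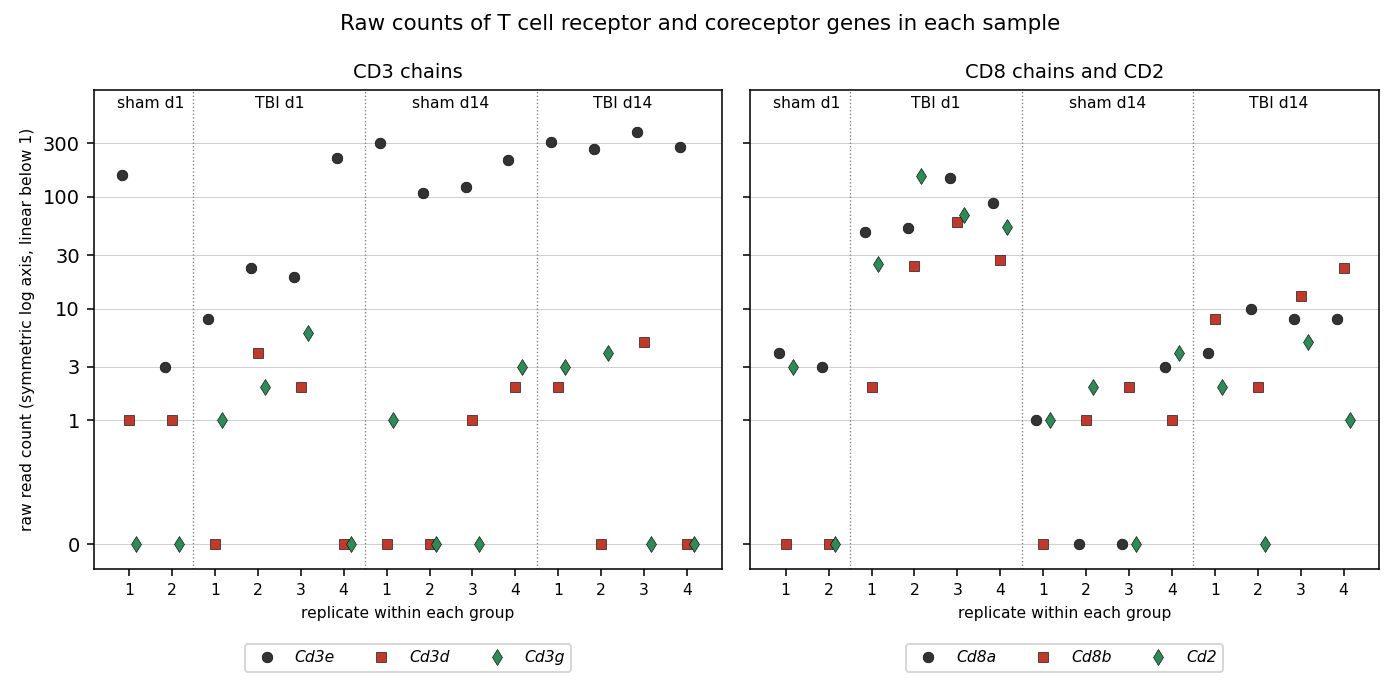
Raw read counts per rat of the CD3 chains (left) and of the CD8 chains and CD2 (right), on a symmetric log axis that is linear below 1 count, with replicates ordered within each group. Cd3d and Cd3g stay at 6 counts or fewer, Cd3e reaches 381, and Cd8a, Cd8b and Cd2 are higher in TBI day 1 than in either sham group, with 2 counts of Cd8b in TBI day 1 replicate 1.

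Cd8a, the alpha chain of the CD8 coreceptor, rose at day 1 from a handful of reads. It had 4 and 3 counts in sham day 1 and 48, 53, 146 and 88 in TBI day 1. At day 14 it had 1, 0, 0 and 3 in sham and 4, 10, 8 and 8 in TBI. TBI and sham did not overlap on either day, and all TBI day 1 rats lay above all TBI day 14 rats. The log2 fold change at day 1 was 4.40 (SE 0.74, edgeR adjusted p 0.00103), and 4.71 without the 3 libraries high in Ttr (edgeR adjusted p 0.0135). Summed reads gave a ratio of 21.9, with an exact 95% interval of 10.5 to 54.8 that covers counting error only. At day 14 the log2 fold change was 2.72 (SE 0.76, edgeR adjusted p 0.0574), which did not pass either with or without the 3 libraries high in Ttr (2.48, edgeR adjusted p 0.315), and the ratio of summed reads was 7.24 (2.55 to 28.3, counting error only). DESeq2 called the day 14 value (log2 fold change 2.85, adjusted p 0.0249), as did edgeR without TBI day 1 replicate 3 (2.72) or sham day 14 replicate 4 (4.01). The difference between the effects of the 2 days was 1.67 (SE 1.27, edgeR adjusted p 0.503).

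Cd8b, the beta chain that pairs with CD8 alpha on most CD8 T cells, lies beside Cd8a. It had 0 and 0 counts in sham day 1 and 2, 24, 59 and 27 in TBI day 1. It was 17.1-fold higher with the summed sham reads set to the floor of 3 counts and the TBI reads taken as exact. By day 14 it had 0, 1, 2 and 1 counts in sham and 8, 2, 13 and 23 in TBI, a ratio of summed reads of 11.1 (4.05 to 42.5, counting error only). Its test passed at day 1 (edgeR adjusted p 0.0130) and not at day 14 (edgeR adjusted p 0.118), and the same held without the 3 libraries high in Ttr (0.0492 and 0.0897). In TBI day 1 replicate 1 the 2 counts of Cd8b stood beside 48 of Cd8a.

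Cd2, an adhesion receptor of T cells and natural killer cells, was raised at day 1 and was near 0 in the other groups. It had 3 and 0 counts in sham day 1 and 25, 152, 68 and 54 in TBI day 1. In sham day 14 it had 1, 2, 0 and 4, and in TBI day 14 it had 2, 0, 5 and 1. Every TBI day 1 rat lay above every rat of the 3 other groups. The log2 fold change at day 1 was 5.31 (SE 1.08, edgeR adjusted p 0.00364), and the ratio of summed reads was 45.5 (15.4 to 222, counting error only). The call was lost without sham day 1 replicate 2, the rat with 0 counts (log2 fold change 4.28, edgeR adjusted p 0.0552), and held without the 3 libraries high in Ttr (edgeR adjusted p 0.00869). At day 14 the log2 fold change was 0.12 (SE 1.05, edgeR adjusted p 0.986), and the ratio of summed reads was 1.10 (0.350 to 3.57, counting error only). The difference between the 2 days was 5.19 (SE 1.61), with an edgeR adjusted p of 0.0873 that did not pass and a DESeq2 adjusted p of 0.00946 that did.

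Cd4, the coreceptor for class II antigen presentation, rose at day 14 and did not pass at day 1. It had 176 and 75 counts in sham day 1 and 72, 139, 84 and 105 in TBI day 1, which overlapped. At day 14 it had 106, 120, 103 and 117 counts in sham and 652, 413, 655 and 1298 in TBI, which did not overlap. The level at day 14 went from 6.52 ± 0.726 CPM (SD, n = 4) to 42.1 ± 19.2 (SD, n = 4). For Cd4 the log2 fold change was −0.52 (SE 0.39, edgeR adjusted p 0.372) at day 1 and 2.69 (SE 0.33, edgeR adjusted p 0.000127) at day 14. The day 1 value was 0.36 without the 3 libraries high in Ttr, and neither passed. At day 14 the value without those libraries was 3.12 (edgeR adjusted p 6.78e-06).

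Cd4 was the 1 gene of the 8 whose difference between the days passed in edgeR, at −3.21 (SE 0.50, edgeR adjusted p 0.00381), where 3.68% of all tested genes passed. Without the 3 libraries high in Ttr the difference was −2.76 (SE 0.37, edgeR adjusted p 0.00512). Lag3, a CD4-like receptor for class II molecules, lies beside Cd4 in GRCr8 and was looked at after its values were seen. It had 4 and 3 counts in sham day 1, 9, 9, 14 and 5 in TBI day 1, 3, 5, 8 and 5 in sham day 14, and 76, 100, 82 and 112 in TBI day 14. It rose at day 14 by a log2 fold change of 4.08 (SE 0.35, edgeR adjusted p 9.39e-06), and its effect also differed between the days, by −2.83 (SE 0.69, edgeR adjusted p 0.0344). Without the 3 libraries high in Ttr the day 14 rise of Lag3 was 4.17 and passed, and the difference between the days was −2.61 (edgeR adjusted p 0.197), which did not. The genes nearest to Cd4 in pattern over the 14 samples were Hsh2d (root mean square difference 0.54), Npc2 (0.55) and Emr1 (0.57).

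Lck, the kinase that binds the tails of CD4 and CD8, did not pass at either day. It had 42 and 33 counts in sham day 1, 39, 51, 32 and 37 in TBI day 1, 20, 43, 28 and 30 in sham day 14, and 22, 47, 43 and 27 in TBI day 14. All 4 groups overlapped. Lck gave a log2 fold change of −0.06 (SE 0.37, edgeR adjusted p 0.922) at day 1 and 0.14 (SE 0.31, edgeR adjusted p 0.932) at day 14.

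Coro1a, an actin-binding coronin of leukocytes, was counted with 1789 to 3273 reads per rat. It had 1825 and 1853 counts in sham day 1, and 1969, 2824, 3273 and 2067 in TBI day 1. Day 14 gave 1789, 2119, 1867 and 1948 in sham, and 2015, 2190, 2578 and 2355 in TBI. In CPM the TBI and sham rats overlapped on both days. The log2 fold change was 0.32 (SE 0.17, edgeR adjusted p 0.200) at day 1 and 0.19 (SE 0.14, edgeR adjusted p 0.693) at day 14, and neither passed. Of the pattern neighbors, those of Ptprc were Ifi30 (0.30), Vav1 (0.30) and Tyrobp (0.33), those of Ptprcap were Ftl1 (0.28), Cd300lf (0.37) and Tmem173 (0.39), those of Lck were Abo (0.22), Dusp23 (0.24) and Hint2 (0.24), and those of Coro1a were Ppp4c (0.11), Cndp2 (0.12) and Sft2d1 (0.13), each as a root mean square difference in log2 CPM.

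The 3 further contrasts set the days against each other. TBI day 1 against sham day 14, which shares its sham rats with the day 14 comparison, called 3 of the 8 genes, all higher, where 46% of all tested genes were called: Ptprc (log2 fold change 2.90), Cd8a (5.89) and Cd2 (4.92). TBI day 14 against TBI day 1 called 5, where 39.5% of all tested genes were called. Ptprcap (1.60), Cd3e (2.52) and Cd4 (3.23) were higher at day 14, and Cd8a (−3.17) and Cd2 (−4.79) were lower. Ptprc differed by −0.44 (SE 0.23, edgeR adjusted p 0.139), which did not pass. Between the sham groups, 1 of the 8 genes was called, Ptprcap, where 19.1% of all tested genes were called. That call was lost without the 3 libraries high in Ttr (edgeR adjusted p 0.0531).

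Other genes of the same pathways, taken from lists written from general knowledge, were counted in the same fit. Some genes stand in several lists, so the counts of the lists are not separate results. Vav1, Ptpn6 and Was are also in the pan-leukocyte list below, and Cd22 is in the B cell and the ligand lists. Of 23 tested genes of T cell surface and receptor signaling, 8 rose and 1 fell at day 1, and 4 rose and 0 fell at day 14. Their median log2 fold changes were 1.69 and 0.35, against −0.02 and −0.03 over all tested genes. The summed level of the 34 genes of this list in the table overlapped on both days. At day 1 it was 444 and 545 CPM for sham replicates 1 and 2 against 309 to 492 for TBI, with a lower median in TBI (367 against 495). At day 14 it was 303 to 321 for sham against 300 to 360 for TBI. The higher sham sum of day 1 was in the rat that was not high in Ttr. The largest rise at day 1 was that of Cd8b, and the 1 fall was that of S1pr1 (−0.56), a lipid receptor also made by vessels and glia. S1pr1 alone held 266 of the 444 CPM in sham day 1 replicate 1 and 175 of the 545 in replicate 2, against 136 to 165 in TBI day 1. The higher sum of replicate 2 thus came from other genes of the list, which were not separated. S1pr1 was higher in the other sham rat, the one high in Ttr. Without the 3 libraries high in Ttr its value was −0.25 (edgeR adjusted p 0.461), and 7 of the 23 genes rose and 0 fell at day 1, while 4 rose at day 14. At day 14 the largest rise was that of Vav1 (2.14), a signaling factor of all blood cells. Pdcd1 and Il7r were at 0 counts in every sample.

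Of 9 tested cytotoxic and natural killer genes, 1 rose and 1 fell at day 1, and 1 rose at day 14. The share that rose at day 1, 11.1%, was near the 11.2% of all tested genes. Cst7, an inhibitor of cathepsins also made by myeloid cells, rose at day 1, with a ratio of summed reads of 38.4 (13 to 187, counting error only). Gzmm fell by 0.81 on the log2 scale at day 1, and Ncr3 rose by 1.62 at day 14, a call lost without the 3 libraries high in Ttr (edgeR adjusted p 0.0964). Gzmc, Klrg1 and Ifng were at 0 in every sample. Of 8 tested B cell and plasma cell genes, 2 rose at day 1 and 4 at day 14, led by Sdc1 (5.25 at day 1), which other cells also make, and Cd22 (3.55 at day 14), which rodent microglia also carry.

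Genes that act with the 9 were read in the same way. Of 16 tested Src-family kinases and their regulators, 8 rose at day 1 and 5 at day 14, led by the myeloid kinase Fgr (3.43) and the phosphatase Ptpn6 (1.82). Of 19 coronins and genes of the Arp2/3 complex, which nucleates actin, 4 rose at day 1 and 5 at day 14, led by Arpc1b (2.60) and Was (1.73). Of 19 ligands of the lymphocyte receptors, 11 rose at day 1 and 12 at day 14, led by Lgals3 (6.36) and the class II gene RT1-Ba (4.46). None of these 3 lists held a gene that fell. The genes that rose without the 3 libraries high in Ttr were 7 at day 1 and 5 at day 14 for the kinases, 3 and 4 for the coronins and Arp2/3, and 13 and 13 for the ligands.

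**Figure D4:**
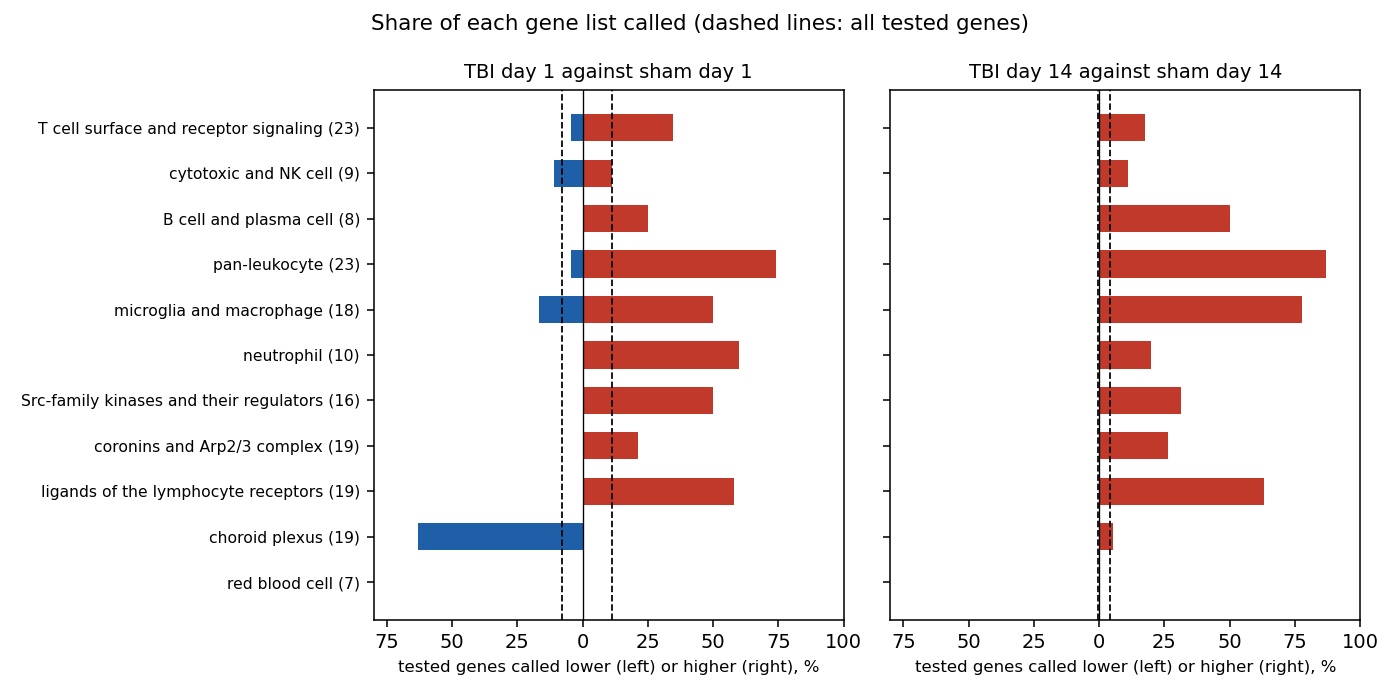
Percent of the tested genes of each list that edgeR called higher (right, red) or lower (left, blue) at day 1 and day 14, with the number of tested genes in brackets and dashed lines at the percent of all 12875 tested genes. The pan-leukocyte list stands at 73.9% higher at day 1 and 87.0% at day 14, and the list of T cell genes at 34.8% and 17.4%.

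Markers of other blood and brain cells were also counted. Of 23 tested pan-leukocyte genes, 17 rose and 1 fell at day 1, and 20 rose at day 14, led by Cytip (4.59 and 2.77), and the 1 that fell was Selplg (−1.39). Of 18 genes of microglia and macrophages, 9 rose and 3 fell at day 1 and 14 rose at day 14, led by the lysosomal gene Cd68 (3.85 and 4.93), while Tmem119, a gene of resident microglia, fell by 1.90 at day 1. Their summed level was 524 to 855 CPM for sham against 1090 to 1370 for TBI at day 1. At day 14 it was 613 to 788 for sham against 1418 to 2528 for TBI. The groups did not overlap on either day. With the 3 libraries high in Ttr left out, 19 pan-leukocyte genes rose and 0 fell at day 1 (Selplg −1.06, edgeR adjusted p 0.0511), and 11 genes of microglia and macrophages rose and 1 fell.

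Of 10 tested neutrophil genes, 6 rose at day 1 and 2 at day 14, led by Lcn2 (7.25 and 2.77), which astrocytes can also make. The summed level of the 15 neutrophil genes in the table was 13.4 to 27.0 CPM for sham against 417 to 705 for TBI at day 1, and 14.8 to 32.9 against 46.8 to 55.5 at day 14. Lcn2 alone held 310 to 637 CPM in TBI day 1 and 1.43 to 4.90 CPM in sham day 1, so the day 1 sum was mostly this 1 gene. Elane was at 0 in 3 of the 4 groups. Of 7 tested red blood cell genes, 0 were called by edgeR at either day against the sham of that day. The summed level of the 8 in the table overlapped between sham (273 to 548 CPM) and TBI (451 to 1112 CPM) at day 1, and again at day 14 (97.0 to 253 CPM against 97.3 to 156). Across days they did change. In the same fit 6 of the 7 were higher in TBI day 1 than in sham day 14, where 46% of all tested genes were called. In TBI day 14 against TBI day 1, 5 were lower, where 39.5% of all tested genes were called.

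Of 19 tested choroid plexus genes, 12 fell at day 1 and 1 rose at day 14, which in both cases included Ttr (−9.56 and 7.73). Their summed level was 33.8 and 9149 CPM in the 2 sham rats of day 1, against 35.3 to 84.6 in the injured rats. At day 14 it ran from 36.0 to 44.7 among sham rats and from 36.1 to 7807 among injured rats. Once the 3 libraries high in Ttr were left out, 3 of 17 tested choroid plexus genes rose and 2 fell at day 1, and 0 were called at day 14 by edgeR. The part of these other cell types in the changes of Ptprc, Cd4, Cd8a and Cd2 was not tested.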

How the data were processed

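Polyadenylated RNA of the ipsilateral hippocampus was sequenced with a stranded kit from 14 rats. Per the study's methods, STAR 2.4.2a placed the reads on rat build rn5, and featureCounts 1.5.0 assigned them to UCSC genes. The authors deposited raw counts per gene, with no normalization. Labels gave the groups. Total counts at day 1 ran from 19189470 to 23743703 for sham and from 17183319 to 23159858 for TBI, and at day 14 from 15506103 to 19175585 for sham and from 15065540 to 19781459 for TBI. Replicates differed beyond counting noise (chi-squared per degree of freedom 13.3 to 171 over 19 pairs).

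The 14 samples entered 1 quasi-likelihood model of edgeR 4.0.16 (R 4.3.3) that gave each group its own mean, after TMM scaling and edgeR's own filter on low counts. P-values are two-sided and Benjamini-Hochberg adjusted over 12875 tested genes, with a threshold of 0.05. The SE is the absolute log2 fold change over the square root of F. CPM is scaled to the TMM-adjusted library and not to gene length. Counts of different genes set side by side, and levels summed over a list, are therefore not corrected for length. The sums weigh highly expressed genes most. Intervals of summed reads are exact 95% intervals. The self-test on simulated data had the group sizes of the study.

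The 9 genes and the gene lists were chosen with earlier results of these data known. The text names the 9 genes, the called gene of each list with the largest rise and fall at each day, and for each tested gene with a mean log2 CPM above 0 the 3 genes nearest in pattern, and also the neighbors Lag3 and Mpzl2, hippocampal markers and genes at 0, chosen after their values were seen. The alternatives were limma-voom (limma 3.58.1), DESeq2 1.42.0, median-of-ratios factors, no filter, at least 10 counts in every sample, a replicate block, only the groups compared, a threshold of 0.01, all 6 sham samples as the baseline and the removal of 1 sample at a time. Leaving out the 3 samples with over 20000 counts of Ttr was added after seeing the data. H3K4me3 peak lists were not used here, since no annotation of rn5 was used. Promoter windows are from RefSeq (GRCr8). Figures were drawn with matplotlib 3.10.9.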

Additional observations from a re-analysis of the deposited data

Results flagged for a closer look

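A sample far from the 3 others of its group was found in 12 of 150 groups of 4, judged by the gap to its nearest neighbor over the range of the group, with Dixon's critical value for 4 samples. Chance gives about 1 in 20. Among the 9 genes, Ptprc was high in sham day 14 replicate 4 (gap ratio 0.960) and Ptprcap was low in TBI day 14 replicate 3 (0.905). In sham day 14, Cst7 was apart in replicate 2 (1, the 1 rat with a read), Cd68 was low in replicate 3 (0.857), Fgr was high in replicate 4 (0.879), and Ccdc27 (0.919) and Hsh2d (0.884) were high in replicate 1. In TBI day 1, Ncr3 was low in replicate 4 (0.831), Cd22 was high in replicate 1 (0.894), Lgals3 was high in replicate 3 (0.832) and Tp73 was low in replicate 1 (0.906). Npc2 was high in TBI day 14 replicate 4 (0.840).

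The injury effect differed between the days, by edgeR's test of the difference, in some of the genes named here, as it did in 3.68% of all tested genes. Many of them were named for their pattern or their size of change, so the values are a description. As the log2 fold change at day 1 minus that at day 14, the effect was larger at day 1 for Sdc1 (3.62), Lcn2 (4.48), Fgr (1.67) and Lgals3 (2.55). It was smaller at day 1 for Cd4 (−3.21), Lag3 (−2.83), Selplg (−1.78), Tmem119 (−2.27), Npc2 (−1.88) and Emr1 (−2.00). Ttr gave −17.29, which rests on the 3 libraries with over 20000 of its counts. Without those libraries the difference still passed for Cd4, Sdc1, Lcn2 and Lgals3, and not for the others.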

How the results depend on the processing

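Of 1084 values of the 8 tested genes under other settings, 992 kept their direction and their side of the threshold, 31 lost a call, 14 gained one and 47 changed sign. These values are not independent, since the fits share most of their samples and some left out a rat outside the comparison. Values without a call that stayed so are among those kept. Ptprc at both days, Cd8a at day 1 and Cd4 at day 14 kept their call in every setting that tested them, as did the difference of Cd4 between the days. The number called at day 1 ranged from 2 to 4 with 1 sample left out, and 2 was reached without sham day 1 replicate 2, which ended the calls of Ptprcap and Cd2. At day 14 it ranged from 2 to 4. A lone sham day 1 sample was assumed to vary like the other groups. The call of Ptprcap at day 14 was lost in 7 of 14 such fits (each sham day 14 sample, TBI day 14 replicates 1, 2 and 4), and at day 1 in 5 (both sham day 1 samples, TBI day 1 replicates 1 and 2, TBI day 14 replicate 1), beside limma-voom (1.25), only the groups compared (1.38) and 0.01. In TBI day 1 against sham day 14, Cd3e was called without either sham day 1 sample or TBI day 1 replicate 4, and in limma-voom (−2.79, adjusted p 0.0149), and Cd4 was called without the 3 libraries high in Ttr (−0.54, edgeR adjusted p 0.0388). Between the TBI groups, Ptprc was called without TBI day 1 replicate 1 or TBI day 14 replicate 4, and Coro1a without TBI day 1 replicate 3. With at least 10 counts in every sample only 4 of the 9 genes were tested, and 1 was called at day 1, 1 in TBI day 1 against sham day 14, 1 between the TBI groups and 0 between the sham groups. DESeq2 called 2 differences between days, adding Cd2. Between the sham groups the count was 0 at a threshold of 0.01 and without the 3 libraries high in Ttr, and 0 to 2 with 1 sample left out. Without sham day 1 replicate 2 the call of Ptprcap was lost there, and without replicate 1 Cd3e was added.

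Values that changed sign were all without a call. Without the 3 libraries high in Ttr, the day 1 values were 4.37 for Cd3e, 0.36 for Cd4 and 0.23 for Lck, the day 14 values were −0.16 for Cd2 and −0.27 for Lck, the differences between days were −0.17 for Ptprc, 3.68 for Cd3e and 0.50 for Lck, and Lck was −0.29 between the TBI groups and −0.20 between the sham groups. Cd3e at day 1 was 0.43 in limma-voom. With all 6 sham samples as the baseline, Lck at day 1 was 0.0042. With 1 sample left out, the ranges at day 1 were −2.50 to 4.39 for Cd3e, −1.08 to 0.38 for Cd4 and −0.33 to 0.24 for Lck. At day 14 they were −0.70 to 0.83 for Cd2 and −0.068 to 0.38 for Lck. For the difference between days they were −0.10 to 0.35 for Ptprc, −0.10 to 0.40 for Ptprcap, −3.15 to 3.74 for Cd3e, −0.47 to 0.10 for Lck and −0.020 to 0.24 for Coro1a. In TBI day 1 against sham day 14 they were −0.079 to 0.28 for Lck and −0.13 to 0.12 for Coro1a, and between the TBI groups −0.10 to 0.23 for Lck. Between the sham groups they were −0.91 to 0.54 for Cd4, −4.05 to 0.64 for Cd2 and −0.21 to 0.36 for Lck. The cause was not tested.

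Replicate numbers did not pair the samples: correlations of deviations over 18 same-number pairs ran from −0.35 to 0.24, and 3 of 14 samples correlated best with their own number. With a replicate block, 4 genes were called at day 1, 3 at day 14, 1 for the difference between days, 3 in TBI day 1 against sham day 14, 6 between the TBI groups (Ptprc added) and 1 between the sham groups. Lck at day 1 was 0.044 and the difference of Ptprc between days −0.046 in that fit.

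Over all tested genes, 2458 were called at day 1, against 651 with only the groups compared, 1087 at 0.01, 4324 with all 6 sham samples, and 922 to 3144 with 1 sample left out. At day 14, 571 were called, against 1108 with only the groups compared and 366 at 0.01. For the difference between days 474 were called, against 278 in limma-voom, 1053 in DESeq2, 118 at 0.01, 276 without the 3 libraries and 250 to 695 with 1 sample left out. At 0.01 the TBI groups gave 3160 rather than 5088 and the sham groups 752 rather than 2464, and the latter ranged from 943 to 3431 with 1 sample left out. Depth limits Cd3g, Cd3d, Cd2 and the sham levels of Cd8a, which rest on 6 or fewer reads per sham library.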
